A study of Mus musculus with 15 samples.

Results

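The genes described here carry out or control the synthesis of sterols and fatty acids. They comprise 35 of the 34259 genes in the count table and were taken by symbol from a list of cholesterol and fatty acid synthesis genes, genes of the SREBP system and genes of the liver X receptors (LXR). Each of the 35 matched an identifier in the table and had enough counts to be tested. RNA was sequenced from 15 libraries of the GL261 mouse glioma line, with 3 libraries in each of 5 groups. Hoechst-CD133+ cells made up the 3 hydrogel groups (D-gel@GSNP, the L-form L-gel@GSNP and, with NP, D-gel@NP) and were placed in a lyophilised chiral hydrogel, kept on ice for 20 min and then cultured with a cytokine cocktail until Day 6. The PBS group was Hoechst-CD133+ cells given PBS and the same cytokine cocktail for as long, with no ice step named. The non-SP group was untreated cells from outside the side population, which the design text calls Luci+, grown for as long without cytokines. The genotype label was WT for every library, the growth medium contained fetal bovine serum, and blank medium was added to every group on days 2 and 4. The composition of the cytokine cocktail and of GSNP and NP is not given in the sources used here, and the labels do not say whether replicates were separate cultures, so p-values measure only the spread between these libraries.

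Cells make cholesterol from acetyl-CoA through mevalonate, isoprenoid diphosphates, squalene and lanosterol. The transcription factors SREBP-1 and SREBP-2 are held in the endoplasmic reticulum with their escort SCAP by INSIG proteins while membrane sterol is ample. When sterol falls they travel to the Golgi, are cut there and switch on genes of sterol and fatty acid synthesis. The liver X receptors act in the opposite situation: oxysterols activate them, and they induce the sterol exporters ABCA1 and ABCG1, the gene of SREBP-1 and an E3 ligase that degrades lipoprotein receptors.

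Library totals ranged from 16.6 M to 98.1 M counts, the lowest in D-gel@NP replicate 1 and the highest in L-gel@GSNP replicate 3. Prom1, which encodes CD133, had 8, 35, 10, 19 and 2 counts summed over the libraries of D-gel@GSNP, of L-gel@GSNP, of D-gel@NP, of PBS and of non-SP cells, so the marker in the cell labels was near absent from the RNA of every group. The D-gel@GSNP libraries lay as close to the non-SP libraries as to each other. Over all tested genes the distance between log2 CPM profiles was 67.6 to 73.9 between D-gel@GSNP and non-SP libraries, 65.1 to 69 among D-gel@GSNP libraries and 113.3 to 123.7 between D-gel@GSNP and PBS libraries. Whether the D-gel@GSNP libraries carry an effect of their hydrogel, a wrong label or material shared with the non-SP cells cannot be told apart from these files. Results that rest on them are therefore given as differences between the libraries with those labels. Mitochondrially encoded genes took 3 ± 0.316% of counts for D-gel@GSNP, 4.5 ± 0.192% for L-gel@GSNP, 4.63 ± 0.191% for D-gel@NP, 5.97 ± 0.343% for PBS and 2.86 ± 0.0552% for non-SP libraries (SD, n = 3 each).

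Sterol synthesis genes were highest in the PBS cells. The 18 enzymes of the pathway had their highest mean level in PBS in 18 of 18 cases. How many of all tested genes were highest in PBS was not counted. The summed level of the 18 enzymes was 746 ± 16 CPM for D-gel@GSNP, 894 ± 41.2 for L-gel@GSNP, 1200 ± 94.9 for D-gel@NP, 1640 ± 73.6 for PBS and 742 ± 13.9 for non-SP libraries (SD, n = 3 each). CPM is a gene's count relative to its library's scaled total, given per M counts, and it compares 1 gene between libraries, not genes with each other. Against PBS, 17 of the 18 enzymes passed the test as lower in D-gel@GSNP cells, 18 in L-gel@GSNP cells and 18 in D-gel@NP cells, with median log2 differences of -1.07, -1.12 and -0.62. Of all tested genes, 27.5%, 24.1% and 16.3% were called lower in the same order. These 3 comparisons share the PBS libraries. PBS cells were higher than non-SP cells in 17 of the 18, with a median log2 difference of 1.09, where 27.6% of all tested genes were called higher. A gene passed where edgeR's quasi-likelihood test gave an adjusted p under 0.05 over all 17497 tested genes. In bulk RNA, fewer cells of a type and less RNA per cell cannot be told apart.

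**Figure D1:**
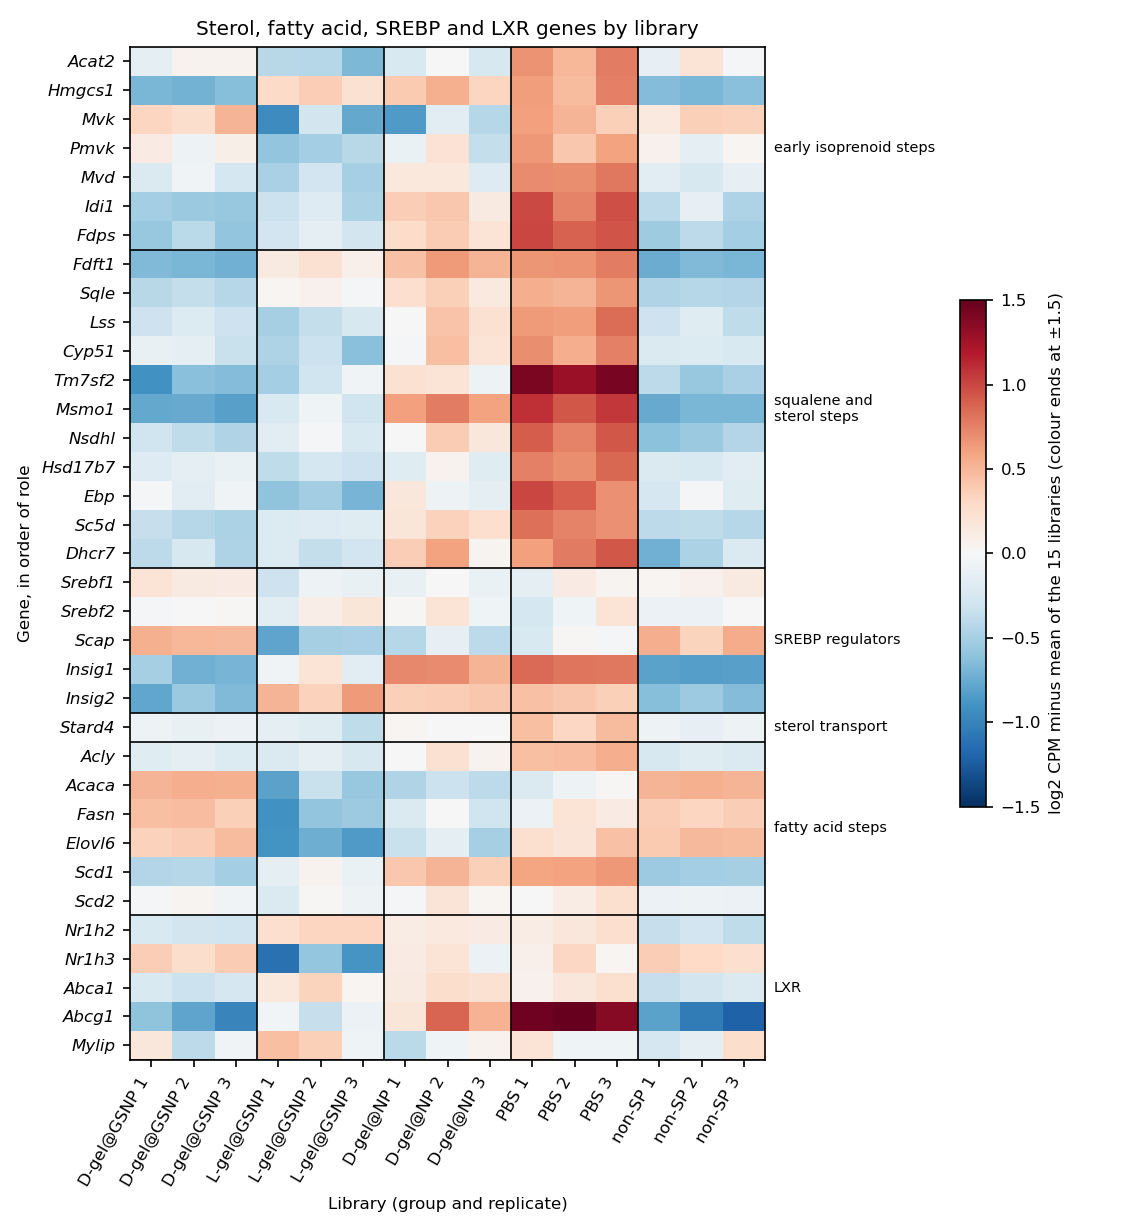
Each row is 1 of the 35 genes in order of role and each column 1 of the 15 libraries. Colour is the log2 CPM minus the gene's mean over the 15 libraries. The 18 sterol enzymes are red in the 3 PBS columns, while Acaca, Fasn, Elovl6 and Scap are red in the D-gel@GSNP and non-SP columns. Elovl6 is red in the PBS columns as well, and the enzyme gene Mvk is also red in the D-gel@GSNP and non-SP columns.

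Over the 35 genes, D-gel@GSNP cells were lower than PBS cells in 25 and higher in 3 (Scap, Acaca and Fasn), where 27.5% of all tested genes were called lower, 27.4% higher and 55% in either direction. L-gel@GSNP cells were lower than PBS cells in 30 and higher in 0, against 24.1% and 21.5% of all tested genes, 45.6% in all. Under upper-quartile scaling 2 of the 35, Insig2 and Nr1h2, were called higher there, and Nr1h2 alone was called higher in 6 other alternatives that keep every library, DESeq2 among them. D-gel@NP cells were lower in 25 and higher in 0, against 16.3% and 14.2% of all tested genes, 30.4% in all. PBS cells were higher than non-SP cells in 26 and lower in 3 (again Scap, Acaca and Fasn, the last not without PBS replicate 1), against 27.6% and 26.1% of all tested genes, 53.7% in all. The median log2 difference of the 35 was -0.92, -0.95, -0.39 and 0.92 in these 4 comparisons, beside -0.02, 0, 0 and 0.02 over all tested genes. In the whole table about as many genes were called higher as lower, whereas most calls among the 35 went 1 way. A fit of only the 6 libraries compared, which leaves out the D-gel@GSNP libraries, called 29 genes in L-gel@GSNP against PBS, 23 in D-gel@NP against PBS and 29 in PBS against non-SP.

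The early isoprenoid steps lead from acetyl-CoA to farnesyl diphosphate. Fdps, farnesyl diphosphate synthase, had 51.2, 57.2 and 50 CPM in D-gel@GSNP, 62, 69.2 and 62.6 in L-gel@GSNP and 91.6, 98.3 and 87.6 in D-gel@NP libraries. It had 152, 140 and 146 CPM in PBS and 52.2, 57.6 and 53 in non-SP libraries. The PBS libraries lay above all others and D-gel@NP libraries above the other hydrogel libraries, while D-gel@GSNP and non-SP libraries overlapped. Fdps was 2.76-fold lower in D-gel@GSNP than in PBS (log2 -1.47, 95% interval -1.6 to -1.33, edgeR adjusted p = 2.68e-14). It was also 2.26-fold lower in L-gel@GSNP than in PBS (log2 -1.18, 95% interval -1.31 to -1.05, edgeR adjusted p = 3.58e-12) and 1.58-fold lower in D-gel@NP than in PBS (log2 -0.66, 95% interval -0.79 to -0.53, edgeR adjusted p = 7.54e-08).

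Hmgcs1, the HMG-CoA synthase that opens the mevalonate branch, had 61.4, 60.3 and 63.4 CPM in D-gel@GSNP, 120, 127 and 115 in L-gel@GSNP and 129, 143 and 123 in D-gel@NP libraries. The level was 152, 137 and 166 CPM in PBS and 62.9, 61.2 and 63.6 in non-SP libraries. L-gel@GSNP and D-gel@NP libraries stayed near PBS for this gene, with one D-gel@NP library inside the PBS range, and the D-gel@GSNP libraries sat with the non-SP libraries. Hmgcs1 was 2.46-fold lower in D-gel@GSNP than in PBS (log2 -1.3, 95% interval -1.43 to -1.16, edgeR adjusted p = 3.34e-13) but 1.26-fold lower in L-gel@GSNP than in PBS (log2 -0.33, 95% interval -0.47 to -0.2, edgeR adjusted p = 0.000205). The difference of D-gel@NP from PBS (log2 difference -0.2, adjusted p = 0.0197 by edgeR) missed the threshold without D-gel@NP replicate 1 or 3 or without PBS replicate 1 or 3.

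Idi1, the isomerase that makes dimethylallyl diphosphate, had 12.1, 11.8 and 11.7 CPM in D-gel@GSNP, 13.8, 15.1 and 12.4 in L-gel@GSNP and 22.5, 23 and 19.1 in D-gel@NP libraries. PBS libraries had 34.6, 29.1 and 33.9 CPM and non-SP libraries 13.2, 15.9 and 12.6. PBS libraries were again highest and D-gel@NP libraries next, and the L-gel@GSNP and non-SP ranges overlapped. Idi1 was 2.74-fold lower in D-gel@GSNP than in PBS (log2 -1.45, 95% interval -1.67 to -1.24, edgeR adjusted p = 6.03e-11). Of the other early genes, Acat2, the cytosolic thiolase, Pmvk, phosphomevalonate kinase, and Mvd, the decarboxylase of mevalonate diphosphate, were lowest in L-gel@GSNP, at mean log2 differences from PBS of -1.16, -1.07 and -1.17. Mvk, mevalonate kinase, followed another order: its means were 8.21 CPM for D-gel@GSNP, 4.04 for L-gel@GSNP, 4.59 for D-gel@NP, 8.97 for PBS and 7.76 for non-SP libraries. The D-gel@GSNP libraries overlapped the PBS libraries for Mvk (log2 difference -0.13, adjusted p = 0.513 by edgeR), and the gene was 2.22-fold lower in L-gel@GSNP than in PBS (log2 -1.15, 95% interval -1.49 to -0.82, edgeR adjusted p = 4.54e-06). Acat2 has a close paralogue, and how reads shared by the 2 were counted is not given in the sources used here.

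The squalene and sterol steps begin with Fdft1 (squalene synthase), Sqle (squalene epoxidase) and Lss (lanosterol synthase). The 11 genes of these steps were called lower than PBS in all 11 cases in each of the 3 hydrogel groups. The share of all tested genes called lower than PBS was 16.3% for D-gel@NP, 24.1% for L-gel@GSNP and 27.5% for D-gel@GSNP. For D-gel@NP the calls of Fdft1 and Dhcr7 were lost in 10 and 4 of 17 alternatives. Msmo1, an oxidase that takes part in the removal of sterol methyl groups, had 48.9, 49.3 and 47.5 CPM in D-gel@GSNP, 71, 79.9 and 68.1 in L-gel@GSNP and 128, 142 and 127 in D-gel@NP libraries. It had 178, 159 and 174 CPM in PBS and 49.5, 52 and 51.8 in non-SP libraries. The hydrogel groups were graded without overlap, D-gel@GSNP lowest and D-gel@NP highest, and each lay below PBS. Msmo1 was 3.51-fold lower in D-gel@GSNP than in PBS (log2 -1.81, 95% interval -1.94 to -1.68, edgeR adjusted p = 6.93e-16) and 2.34-fold lower in L-gel@GSNP than in PBS (log2 -1.23, 95% interval -1.35 to -1.1, edgeR adjusted p = 1.23e-12). It was also 1.29-fold lower in D-gel@NP than in PBS (log2 -0.36, 95% interval -0.49 to -0.24, edgeR adjusted p = 8.98e-05).

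Tm7sf2, a sterol reductase gene, was expressed at a low level and had the widest change among the sterol enzymes. It had 2.28, 2.81 and 2.76 CPM in D-gel@GSNP, 3.06, 3.56 and 4.24 in L-gel@GSNP and 5.19, 5.09 and 4.15 in D-gel@NP libraries. PBS libraries had 11.9, 11 and 12 CPM and non-SP libraries 3.33, 2.92 and 3.1. PBS libraries lay above the other 12, which ranged between 2.28 and 5.19 CPM. Tm7sf2 was 4.44-fold lower in D-gel@GSNP than in PBS (log2 -2.15, 95% interval -2.45 to -1.85, edgeR adjusted p = 2.73e-11). Its gene overlaps Vps51 in the RefSeq annotation of an earlier build, and the strand setting of the counting is not given in the sources used here, so reads of the 2 may be mixed.

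Ebp, the sterol isomerase gene, had 32.2, 29.3 and 31.7 CPM in D-gel@GSNP, 21.6, 22.9 and 20.3 in L-gel@GSNP and 37.1, 31.1 and 29.7 in D-gel@NP libraries. It had 66.3, 61.2 and 52.8 CPM in PBS and 27.7, 32.4 and 29 in non-SP libraries. The L-gel@GSNP libraries were the lowest of the 15, while D-gel@GSNP, D-gel@NP and non-SP libraries overlapped. Ebp was 2.79-fold lower in L-gel@GSNP than in PBS (log2 -1.48, 95% interval -1.67 to -1.29, edgeR adjusted p = 2.39e-11), and 1.93-fold lower in D-gel@GSNP than in PBS (log2 -0.95, 95% interval -1.13 to -0.77, edgeR adjusted p = 5.08e-09). Other genes of these steps included Nsdhl and Hsd17b7, which finish the removal of methyl groups, Cyp51, the lanosterol demethylase, Sc5d, a desaturase, and Dhcr7, a late sterol reductase. Their log2 differences of D-gel@GSNP from PBS were -1.24, -0.92, -0.87, -1.17 and -1.16. For Sqle the log2 difference from PBS was -0.98 for D-gel@GSNP, -0.55 for L-gel@GSNP and -0.32 for D-gel@NP, and for Fdft1 it was -1.39, -0.56 and -0.17. Calls for Fdft1 and Dhcr7 in D-gel@NP against PBS (adjusted p = 0.0414 and 0.02 by edgeR) were lost without D-gel@NP replicate 3 or PBS replicate 3, and that for Fdft1 also without D-gel@NP replicate 1 or PBS replicate 1 or 2. Fdft1 overlaps Ctsb in the same annotation.

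**Figure D2:**
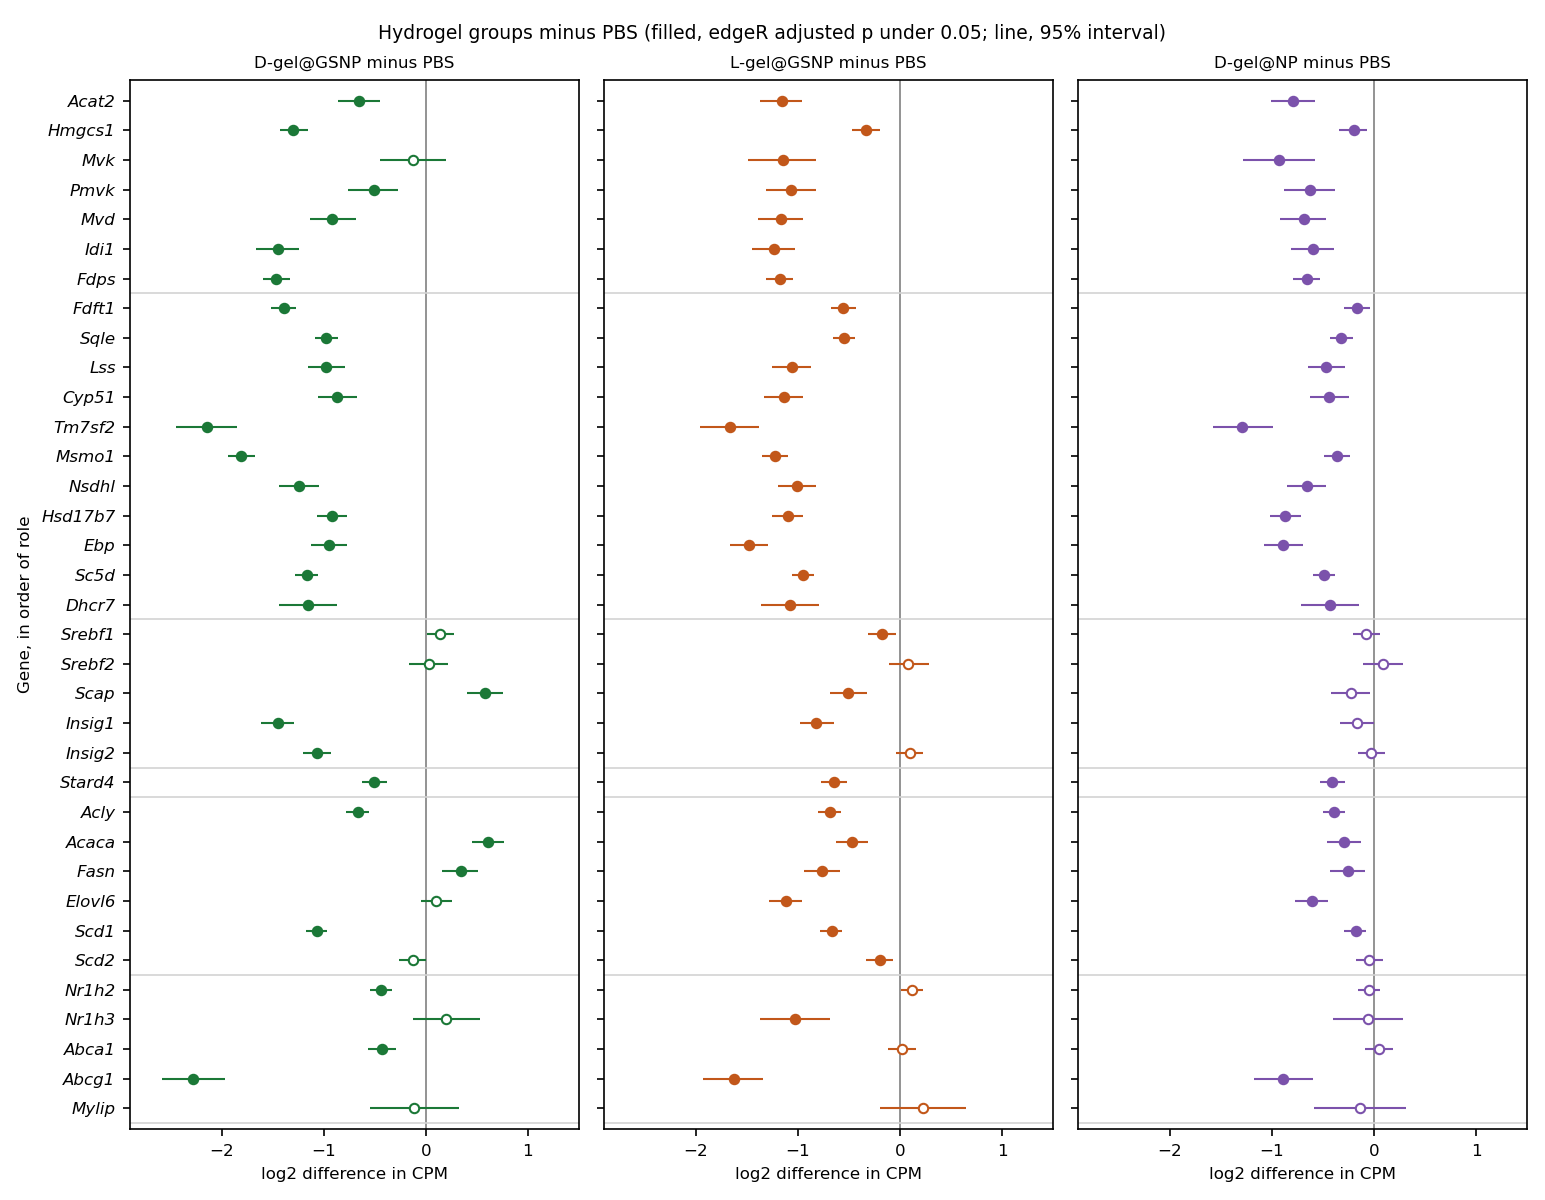
Log2 difference in CPM of each hydrogel group minus PBS for the 35 genes, with 95% intervals; filled points passed the test. The sterol enzymes in the top 18 rows lie left of 0 in each panel, while Scap, Acaca and Fasn lie right of 0 in D-gel@GSNP only.

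SREBP-driven promoters commonly pair a sterol response element with sites for the factors NF-Y (CCAAT box) and Sp1 (GC box). Promoter windows of 300 bases, from 250 bases before to 50 after the start, were found for 28 of the 35 genes in RefSeq tables of build GRCm38.p6. No entry was found for Abcg1, Fdft1, Fdps, Scd1, Scd2, Sqle and Stard4. The letters CCAAT, on either strand, occurred in 14 of the 15 sterol enzymes with a window and in 7 of the other 13 genes, and in 37.41% of all windows in the table. GGGCGG occurred in 14 of the 15 enzymes and in 8 of the other 13 genes, and in 35.66% of all windows. The sterol element searched as TCACNCCAC occurred in 1 of the 28 genes, Hmgcs1, and in 1.24% of all windows. The E-box CACGTG occurred in 6 of the 28 and in 7.15% of all windows, and the LXR element, a spaced direct repeat of AGGTCA, in 0 of the 28 and in 0.02%. Some genes have several windows, so the share per gene and the share per window are not on the same footing; over the 18 windows of the 15 enzymes, CCAAT occurred in 77.8% and GGGCGG in 83.3%. A match is a match of letters, not a bound site. Only exact letters were searched, so a window without a match may still hold a site that differs from them. Whether these letters bear on the levels of the genes was not tested. Chosen by level, the windows shown are those of the 4 genes with an entry and the largest range over the 5 groups. They are written 5′ to 3′ on the gene's strand, with matches to the CCAAT box, GC box and E-box on either strand in capitals.
Msmo1 (chr8:64733529-64733828, minus strand): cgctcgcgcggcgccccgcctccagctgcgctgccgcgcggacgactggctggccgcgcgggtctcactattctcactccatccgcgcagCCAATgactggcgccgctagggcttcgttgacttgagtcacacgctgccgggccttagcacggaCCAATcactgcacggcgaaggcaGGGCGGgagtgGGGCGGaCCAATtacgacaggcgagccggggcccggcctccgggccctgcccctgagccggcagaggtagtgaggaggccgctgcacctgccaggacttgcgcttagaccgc
Insig1 (chr5:28071162-28071461, plus strand): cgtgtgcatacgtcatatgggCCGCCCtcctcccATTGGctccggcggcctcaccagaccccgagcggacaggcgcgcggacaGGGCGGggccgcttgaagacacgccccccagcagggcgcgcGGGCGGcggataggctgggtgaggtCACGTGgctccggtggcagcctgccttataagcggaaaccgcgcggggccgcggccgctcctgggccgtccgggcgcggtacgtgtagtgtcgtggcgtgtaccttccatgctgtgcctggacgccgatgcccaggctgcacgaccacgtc
Ebp (chrX:8193463-8193762, minus strand): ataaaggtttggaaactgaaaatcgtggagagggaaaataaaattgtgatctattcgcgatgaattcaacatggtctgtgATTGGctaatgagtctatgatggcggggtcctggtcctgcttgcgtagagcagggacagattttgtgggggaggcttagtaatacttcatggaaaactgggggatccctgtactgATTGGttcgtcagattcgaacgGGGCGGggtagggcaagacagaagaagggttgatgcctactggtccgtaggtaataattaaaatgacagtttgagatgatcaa
Tm7sf2 (chr19:6067801-6068100, minus strand): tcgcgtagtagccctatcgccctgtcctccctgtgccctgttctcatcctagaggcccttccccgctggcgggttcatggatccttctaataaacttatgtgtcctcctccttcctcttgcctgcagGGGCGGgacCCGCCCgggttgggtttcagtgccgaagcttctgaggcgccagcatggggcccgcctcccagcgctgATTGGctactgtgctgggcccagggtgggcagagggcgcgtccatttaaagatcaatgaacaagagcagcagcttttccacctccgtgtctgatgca
Each window holds at least 1 CCAAT box and 1 GC box, and the one of Msmo1 holds 3 CCAAT boxes and 2 GC boxes. Only the Insig1 window of the 4 holds an E-box.

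Of the 5 genes of the SREBP regulators, D-gel@GSNP cells were higher than PBS cells in 1, Scap, and lower in 2, Insig1 and Insig2. L-gel@GSNP cells were higher than PBS cells in 0 and lower in 3, Srebf1, Scap and Insig1, and D-gel@NP cells passed against PBS in 0. Over all tested genes, 27.4% were called higher and 27.5% lower in D-gel@GSNP against PBS. The shares were 21.5% and 24.1% in L-gel@GSNP and 14.2% and 16.3% in D-gel@NP. Srebf2, which encodes SREBP-2, the form that favours sterol genes, had 64.3, 65.2 and 66.3 CPM in D-gel@GSNP, 58.8, 70.2 and 74.2 in L-gel@GSNP and 66.4, 75.4 and 62.5 in D-gel@NP libraries. It had 54.4, 62.7 and 75.2 CPM in PBS and 61.7, 61.6 and 65.6 in non-SP libraries. The 5 groups overlapped, and Srebf2 passed the test in 0 of the 10 comparisons between groups, with an interval of -0.17 to 0.22 for D-gel@GSNP minus PBS on the log2 scale.

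Srebf1, which encodes SREBP-1, the form that favours fatty acid genes, had 147, 140 and 139 CPM in D-gel@GSNP, 103, 121 and 118 in L-gel@GSNP and 118, 128 and 119 in D-gel@NP libraries. The level was 116, 139 and 131 CPM in PBS and 130, 133 and 140 in non-SP libraries. Its largest difference was between the GSNP hydrogels, where it was 1.25-fold higher in D-gel@GSNP than in L-gel@GSNP (log2 0.32, 95% interval 0.18 to 0.45, edgeR adjusted p = 0.000181). The call of a lower level in L-gel@GSNP than in PBS (log2 difference -0.18, adjusted p = 0.0311 by edgeR) was lost in 9 of 17 alternatives, among them without L-gel@GSNP replicate 1 or PBS replicate 2 or 3. Srebf1 overlaps Rai1 in the same annotation, and these are RNA levels, which do not measure the cut, active factor.

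Scap, the escort, had 74, 72.1 and 71.4 CPM in D-gel@GSNP, 29.5, 36 and 36.5 in L-gel@GSNP and 37.8, 46.9 and 38.8 in D-gel@NP libraries. PBS libraries had 43.5, 51.6 and 50.3 CPM and non-SP libraries 74.4, 64.6 and 74.8. D-gel@GSNP and non-SP libraries lay above all others and L-gel@GSNP libraries below all others. Scap was 1.49-fold higher in D-gel@GSNP than in PBS (log2 0.58, 95% interval 0.4 to 0.76, edgeR adjusted p = 5.67e-06), and 1.42-fold lower in L-gel@GSNP than in PBS (log2 -0.51, 95% interval -0.69 to -0.32, edgeR adjusted p = 6.11e-05). This order differs from that of the sterol enzymes, since PBS was neither the highest nor the lowest group.

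Insig1, which retains the SREBPs and is itself a classic SREBP target, had 32.7, 28.1 and 28.4 CPM in D-gel@GSNP, 44.7, 53.3 and 41.2 in L-gel@GSNP and 76.1, 75.8 and 66.1 in D-gel@NP libraries. It had 83.2, 81 and 80.5 CPM in PBS and 26.5, 26 and 26.2 in non-SP libraries. Like the 18 sterol enzymes, Insig1 had its highest mean in PBS. PBS and D-gel@NP libraries were high, L-gel@GSNP libraries lower and D-gel@GSNP and non-SP libraries lowest. The enzymes did not share all of this order, since 8 of the 18 had their lowest mean in L-gel@GSNP. The D-gel@NP libraries of Insig1 lay below its PBS libraries. Insig1 was 2.74-fold lower in D-gel@GSNP than in PBS (log2 -1.45, 95% interval -1.62 to -1.29, edgeR adjusted p = 1.42e-12) and 1.76-fold lower in L-gel@GSNP than in PBS (log2 -0.82, 95% interval -0.98 to -0.65, edgeR adjusted p = 2.34e-08), and in D-gel@NP it missed the threshold (log2 difference -0.17, adjusted p = 0.117 by edgeR). Insig2, its paralogue, had 45.2, 52.7 and 49.3 CPM in D-gel@GSNP, 111, 98.8 and 121 in L-gel@GSNP and 100, 101 and 103 in D-gel@NP libraries. The level was 106, 103 and 100 CPM in PBS and 49.9, 53.5 and 49.7 in non-SP libraries. Here the 9 libraries of PBS, D-gel@NP and L-gel@GSNP cells lay together and the D-gel@GSNP and non-SP libraries lay lower, between 45.2 and 53.5 CPM. Insig2 was 2.1-fold lower in D-gel@GSNP than in PBS (log2 -1.07, 95% interval -1.21 to -0.93, edgeR adjusted p = 7.21e-12), and L-gel@GSNP and D-gel@NP did not pass the test against PBS (adjusted p = 0.241 and 0.797 by edgeR).

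Stard4, a cytosolic carrier of cholesterol, had 77.1, 75.3 and 76.2 CPM in D-gel@GSNP, 74.1, 71.5 and 62.4 in L-gel@GSNP and 82.9, 81.7 and 80.7 in D-gel@NP libraries. PBS libraries had 111, 101 and 113 CPM and non-SP libraries 77.2, 74.4 and 77.3. The PBS libraries were above the other 12, which lay between 62.4 and 82.9 CPM. Stard4 was 1.57-fold lower in L-gel@GSNP than in PBS (log2 -0.65, 95% interval -0.77 to -0.52, edgeR adjusted p = 9.13e-09) and 1.42-fold lower in D-gel@GSNP than in PBS (log2 -0.51, 95% interval -0.63 to -0.38, edgeR adjusted p = 1.53e-07).

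Of the 6 fatty acid genes, D-gel@GSNP cells were lower than PBS cells in 2 and higher in 2. The lower ones were Acly, the ATP citrate lyase that supplies cytosolic acetyl-CoA to both pathways, and Scd1, a stearoyl-CoA desaturase, and the higher ones Fasn and Acaca. L-gel@GSNP cells were lower than PBS cells in 6 and higher in 0, and D-gel@NP cells lower in 5 and higher in 0. Over all tested genes, 27.5% were called lower and 27.4% higher in D-gel@GSNP against PBS. The shares were 24.1% and 21.5% in L-gel@GSNP and 16.3% and 14.2% in D-gel@NP. Fasn, fatty acid synthase, had 489, 496 and 459 CPM in D-gel@GSNP, 191, 238 and 245 in L-gel@GSNP and 308, 356 and 291 in D-gel@NP libraries. It had 338, 415 and 392 CPM in PBS and 463, 449 and 464 in non-SP libraries. The D-gel@GSNP libraries lay above the PBS libraries and the L-gel@GSNP libraries below them. Fasn was 1.26-fold higher in D-gel@GSNP than in PBS (log2 0.34, 95% interval 0.16 to 0.51, edgeR adjusted p = 0.00149) and 1.7-fold lower in L-gel@GSNP than in PBS (log2 -0.76, 95% interval -0.94 to -0.59, edgeR adjusted p = 1.28e-07). The first of these missed the threshold in limma on log2(FPKM + 1) with no filter on low values (adjusted p = 0.0717). The difference of D-gel@NP from PBS (log2 difference -0.26, adjusted p = 0.0201 by edgeR) was lost without D-gel@NP replicate 1 or 3 or without PBS replicate 2 or 3.

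Elovl6, which lengthens palmitate, had 70.2, 71.6 and 76.9 CPM in D-gel@GSNP, 29.7, 33.2 and 30.7 in L-gel@GSNP and 43.9, 49.9 and 39.2 in D-gel@NP libraries. The level was 65.5, 63.3 and 74.8 CPM in PBS and 72.7, 77.6 and 76.8 in non-SP libraries. D-gel@GSNP, PBS and non-SP libraries lay close together and L-gel@GSNP libraries lay lowest. Elovl6 was 2.17-fold lower in L-gel@GSNP than in PBS (log2 -1.12, 95% interval -1.28 to -0.96, edgeR adjusted p = 1.59e-10) and 1.53-fold lower in D-gel@NP than in PBS (log2 -0.61, 95% interval -0.77 to -0.45, edgeR adjusted p = 3.93e-06), and it did not pass against PBS in D-gel@GSNP (log2 difference 0.1, adjusted p = 0.258 by edgeR). Acaca, acetyl-CoA carboxylase, averaged 129 CPM for D-gel@GSNP, 60.7 for L-gel@GSNP, 68.4 for D-gel@NP, 83.9 for PBS and 127 for non-SP libraries. It was 1.53-fold higher in D-gel@GSNP than in PBS (log2 0.61, 95% interval 0.45 to 0.77, edgeR adjusted p = 4.82e-07), and 1.38-fold lower in L-gel@GSNP than in PBS (log2 -0.47, 95% interval -0.63 to -0.31, edgeR adjusted p = 3.7e-05). Acaca overlaps Tada2a in the same annotation.

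Scd1 had 311, 313 and 295 CPM in D-gel@GSNP, 383, 436 and 394 in L-gel@GSNP and 560, 602 and 541 in D-gel@NP libraries. PBS libraries had 634, 641 and 660 CPM and non-SP libraries 289, 295 and 299. The PBS libraries were highest and the D-gel@NP libraries next, and D-gel@GSNP and non-SP libraries overlapped at the low end. Scd1 was 2.1-fold lower in D-gel@GSNP than in PBS (log2 -1.07, 95% interval -1.18 to -0.97, edgeR adjusted p = 1.27e-13) and 1.6-fold lower in L-gel@GSNP than in PBS (log2 -0.67, 95% interval -0.78 to -0.57, edgeR adjusted p = 5.99e-10). Its log2 difference of -0.18 in D-gel@NP from PBS was called, and the call was lost without D-gel@NP replicate 3. Its paralogue Scd2 had far more RNA per length, at a mean of 325 FPKM for D-gel@GSNP, 324 for L-gel@GSNP, 358 for D-gel@NP, 368 for PBS and 317 for non-SP libraries. Scd1 stood at 60.7, 84.1, 117, 133 and 59.9 FPKM in the same groups. Reads shared by the 2 paralogues may have been split between them. The log2 differences of Scd2 from PBS were -0.13 for D-gel@GSNP, -0.2 for L-gel@GSNP and -0.05 for D-gel@NP, and the call in L-gel@GSNP (log2 difference -0.2, adjusted p = 0.0112 by edgeR) was lost without L-gel@GSNP replicate 1 or PBS replicate 3.

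**Figure D3:**
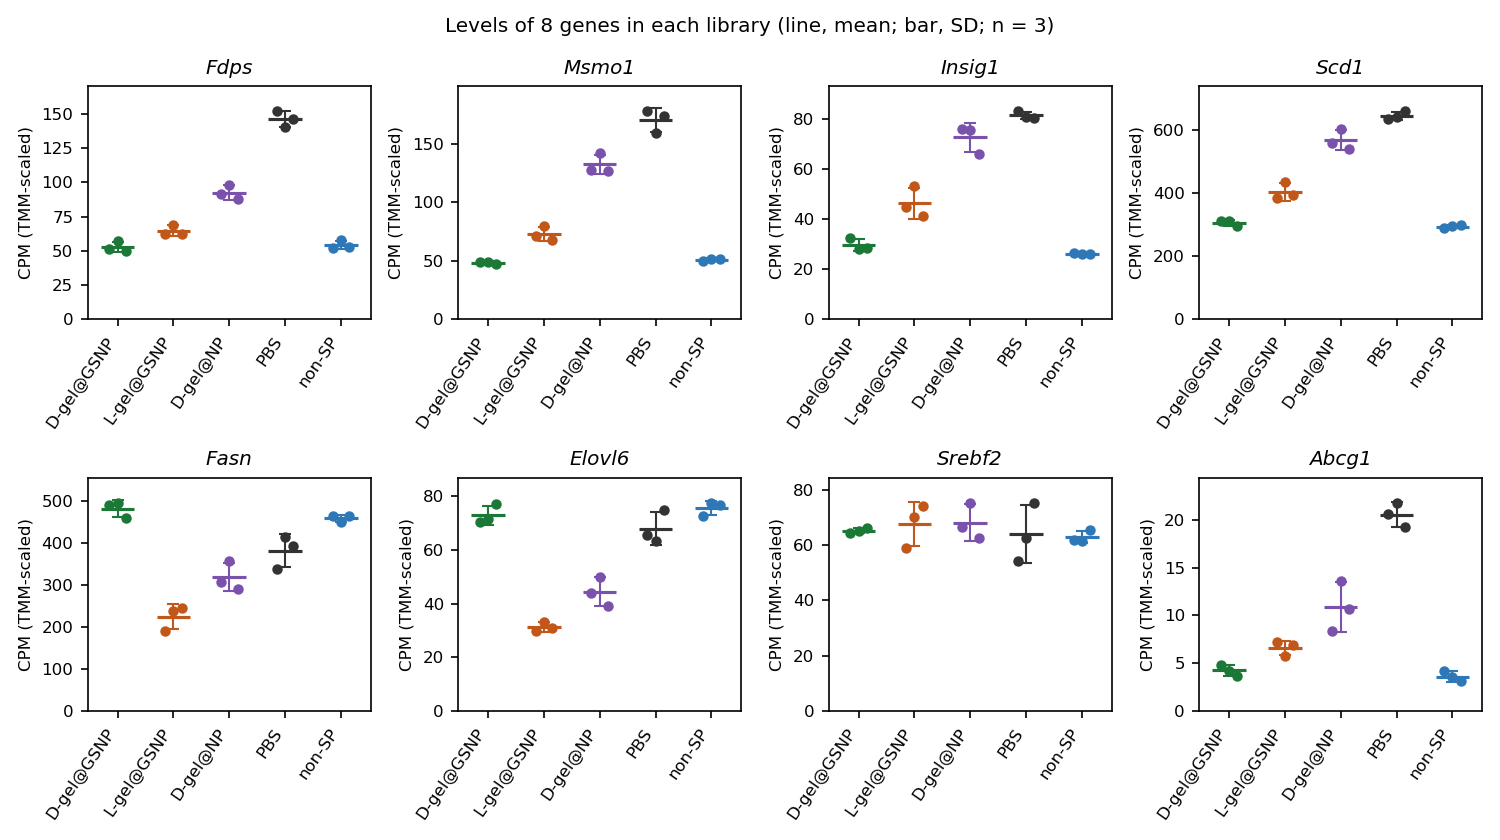
TMM-scaled CPM of 8 genes in each library; points are libraries, lines means and bars SD of 3. Fdps, Msmo1, Insig1, Scd1 and Abcg1 have their highest libraries in PBS, Fasn has its lowest libraries in L-gel@GSNP, and the Srebf2 points of the 5 groups overlap.

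Among the LXR genes, Abcg1 had the widest range of the 35 genes. Abcg1, a sterol exporter, had 4.82, 4.23 and 3.65 CPM in D-gel@GSNP, 7.16, 5.77 and 6.93 in L-gel@GSNP and 8.41, 13.6 and 10.7 in D-gel@NP libraries. It had 20.6, 21.8 and 19.2 CPM in PBS and 4.17, 3.51 and 3.12 in non-SP libraries. The PBS libraries lay above all others and the D-gel@NP libraries above those of the other 3 groups. Abcg1 was 4.85-fold lower in D-gel@GSNP than in PBS (log2 -2.28, 95% interval -2.59 to -1.97, edgeR adjusted p = 1.73e-11) and 3.1-fold lower in L-gel@GSNP than in PBS (log2 -1.63, 95% interval -1.93 to -1.34, edgeR adjusted p = 4.78e-09). It was also 1.85-fold lower in D-gel@NP than in PBS (log2 -0.89, 95% interval -1.18 to -0.6, edgeR adjusted p = 5.05e-05).

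Abca1, the exporter that loads lipid onto apolipoproteins, had 81.9, 76.3 and 80 CPM in D-gel@GSNP, 107, 121 and 97.6 in L-gel@GSNP and 105, 115 and 112 in D-gel@NP libraries. The level was 100, 108 and 113 CPM in PBS and 75.5, 78.9 and 82.1 in non-SP libraries. L-gel@GSNP, D-gel@NP and PBS libraries overlapped, and the D-gel@GSNP and non-SP libraries lay below them. Abca1 was 1.35-fold lower in D-gel@GSNP than in PBS (log2 -0.43, 95% interval -0.57 to -0.29, edgeR adjusted p = 8.65e-06) and did not pass against PBS in L-gel@GSNP or D-gel@NP (adjusted p = 0.854 and 0.657 by edgeR).

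Nr1h3, which encodes LXR alpha, had 4.21, 3.9 and 4.23 CPM in D-gel@GSNP, 1.42, 2.12 and 1.69 in L-gel@GSNP and 3.52, 3.75 and 3.02 in D-gel@NP libraries. It had 3.4, 4.02 and 3.29 CPM in PBS and 4.19, 3.99 and 3.87 in non-SP libraries. The L-gel@GSNP libraries were the lowest of the 15 and the other groups lay close together. Nr1h3 was 2.04-fold lower in L-gel@GSNP than in PBS (log2 -1.03, 95% interval -1.37 to -0.69, edgeR adjusted p = 2.36e-05) and 1.96-fold lower in L-gel@GSNP than in D-gel@NP (log2 -0.97, 95% interval -1.32 to -0.62, edgeR adjusted p = 0.000284). Nr1h3 overlaps Acp2 in the same annotation. Nr1h2, which encodes LXR beta, had 47.3, 45.7 and 45.1 CPM in D-gel@GSNP, 66.1, 69.2 and 69.3 in L-gel@GSNP and 59.9, 61.3 and 60.4 in D-gel@NP libraries. PBS libraries had 59.6, 62.5 and 65.9 CPM and non-SP libraries 43.5, 45.2 and 42.6. D-gel@GSNP and non-SP libraries lay below the other 9 libraries, and Nr1h2 was 1.36-fold lower in D-gel@GSNP than in PBS (log2 -0.44, 95% interval -0.55 to -0.33, edgeR adjusted p = 2.2e-07). Mylip, the E3 ligase, stayed under 4 CPM in each library and passed the test in 0 of the 10 comparisons. Its interval for D-gel@GSNP minus PBS ran from -0.55 to 0.32 on the log2 scale, so a smaller difference was not detectable at this depth.

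The D- and L-form of the GSNP hydrogel were compared directly. D-gel@GSNP cells were higher than L-gel@GSNP cells in 14 of the 35 genes and lower in 14, where 30.5% of all tested genes were called higher, 31.3% lower and 61.8% in either direction. With upper-quartile scaling the split was 10 higher and 17 lower, and with DESeq2 it was 11 and 14. The genes higher by at least 2-fold in D-gel@GSNP were Mvk, Scap, Acaca, Fasn, Elovl6 and Nr1h3, and the only one lower by at least 2-fold was Insig2; over all tested genes 5.46% were at least 2-fold higher and 14.1% at least 2-fold lower. Elovl6 was 2.33-fold higher in D-gel@GSNP than in L-gel@GSNP (log2 1.22, 95% interval 1.06 to 1.38, edgeR adjusted p = 6.13e-12), Fasn 2.14-fold higher in D-gel@GSNP than in L-gel@GSNP (log2 1.1, 95% interval 0.93 to 1.27, edgeR adjusted p = 1.23e-10) and Insig2 2.25-fold lower in D-gel@GSNP than in L-gel@GSNP (log2 -1.17, 95% interval -1.3 to -1.03, edgeR adjusted p = 9.24e-13). The sterol enzymes divided: Hmgcs1, Fdps, Fdft1, Sqle, Tm7sf2, Msmo1, Nsdhl and Sc5d were lower in D-gel@GSNP, and Acat2, Mvk, Pmvk, Mvd, Cyp51, Hsd17b7 and Ebp were higher. Several of these calls were not stable. Those of Mvd (adjusted p = 0.0489 by edgeR), Stard4 (0.0447) and Hsd17b7 (0.0387) were lost in 15, 14 and 13 of 17 alternatives, DESeq2 and the other scaling factors among them. With 1 library left out, Mvd lost its call without D-gel@GSNP replicate 1 or 2 or L-gel@GSNP replicate 1 or 3, and Cyp51 without D-gel@GSNP replicate 1 or L-gel@GSNP replicate 3. Hsd17b7 lost its call without D-gel@GSNP replicate 2 or 3 or any L-gel@GSNP library. Nsdhl did so without D-gel@GSNP replicate 2 or 3 or L-gel@GSNP replicate 2, and Tm7sf2 without L-gel@GSNP replicate 3. Stard4, called higher in D-gel@GSNP, lost the call without any D-gel@GSNP library or L-gel@GSNP replicate 2 or 3, and its sign turned under upper-quartile scaling.

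D-gel@GSNP and D-gel@NP carry the same D-gel label and differ in GSNP or NP. D-gel@GSNP cells were higher than D-gel@NP cells in 6 of the 35 genes and lower in 19, where 28.8% of all tested genes were called higher, 29.6% lower and 58.4% in either direction. Higher were Mvk, Srebf1, Scap, Acaca, Fasn and Elovl6. Of these, Srebf1 lost its call in 4 of 17 alternatives, which were upper-quartile scaling and the limma fits on FPKM (adjusted p = 0.186 at its highest over the alternatives, by edgeR or limma). Msmo1 was 2.73-fold lower in D-gel@GSNP than in D-gel@NP (log2 -1.45, 95% interval -1.58 to -1.32, edgeR adjusted p = 1.59e-14), Insig1 2.44-fold lower in D-gel@GSNP than in D-gel@NP (log2 -1.29, 95% interval -1.46 to -1.12, edgeR adjusted p = 8.57e-12) and Acaca 1.88-fold higher in D-gel@GSNP than in D-gel@NP (log2 0.91, 95% interval 0.74 to 1.07, edgeR adjusted p = 1.26e-09).

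L-gel@GSNP cells were higher than D-gel@NP cells in 1 of the 35 genes, Nr1h2, and lower in 24, where 8.33% of all tested genes were called higher, 11.1% lower and 19.5% in either direction. The median log2 difference of the 35 was -0.38, beside -0.01 over all tested genes. The call for Nr1h2 (adjusted p = 0.0241 by edgeR) was lost without L-gel@GSNP replicate 2 or 3 or D-gel@NP replicate 1 or 3. Msmo1 was 1.82-fold lower in L-gel@GSNP than in D-gel@NP (log2 -0.86, 95% interval -0.99 to -0.73, edgeR adjusted p = 3.98e-09), Cyp51 1.62-fold lower in L-gel@GSNP than in D-gel@NP (log2 -0.7, 95% interval -0.89 to -0.51, edgeR adjusted p = 1.03e-05) and Insig1 1.57-fold lower in L-gel@GSNP than in D-gel@NP (log2 -0.65, 95% interval -0.82 to -0.48, edgeR adjusted p = 5.28e-06). Acat2, Hsd17b7, Nsdhl, Pmvk and Scap lost their calls without D-gel@NP replicate 2, the first 3 also without L-gel@GSNP replicate 3, and Hsd17b7, Pmvk and Scap without L-gel@GSNP replicate 1. A fit of only these 6 libraries called 0 higher and 21 lower. Both groups had the ice step, and both lay far from the non-SP libraries, at distances of 136.1 to 141.1 for L-gel@GSNP and 130.6 to 142.7 for D-gel@NP.

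**Figure D4:**
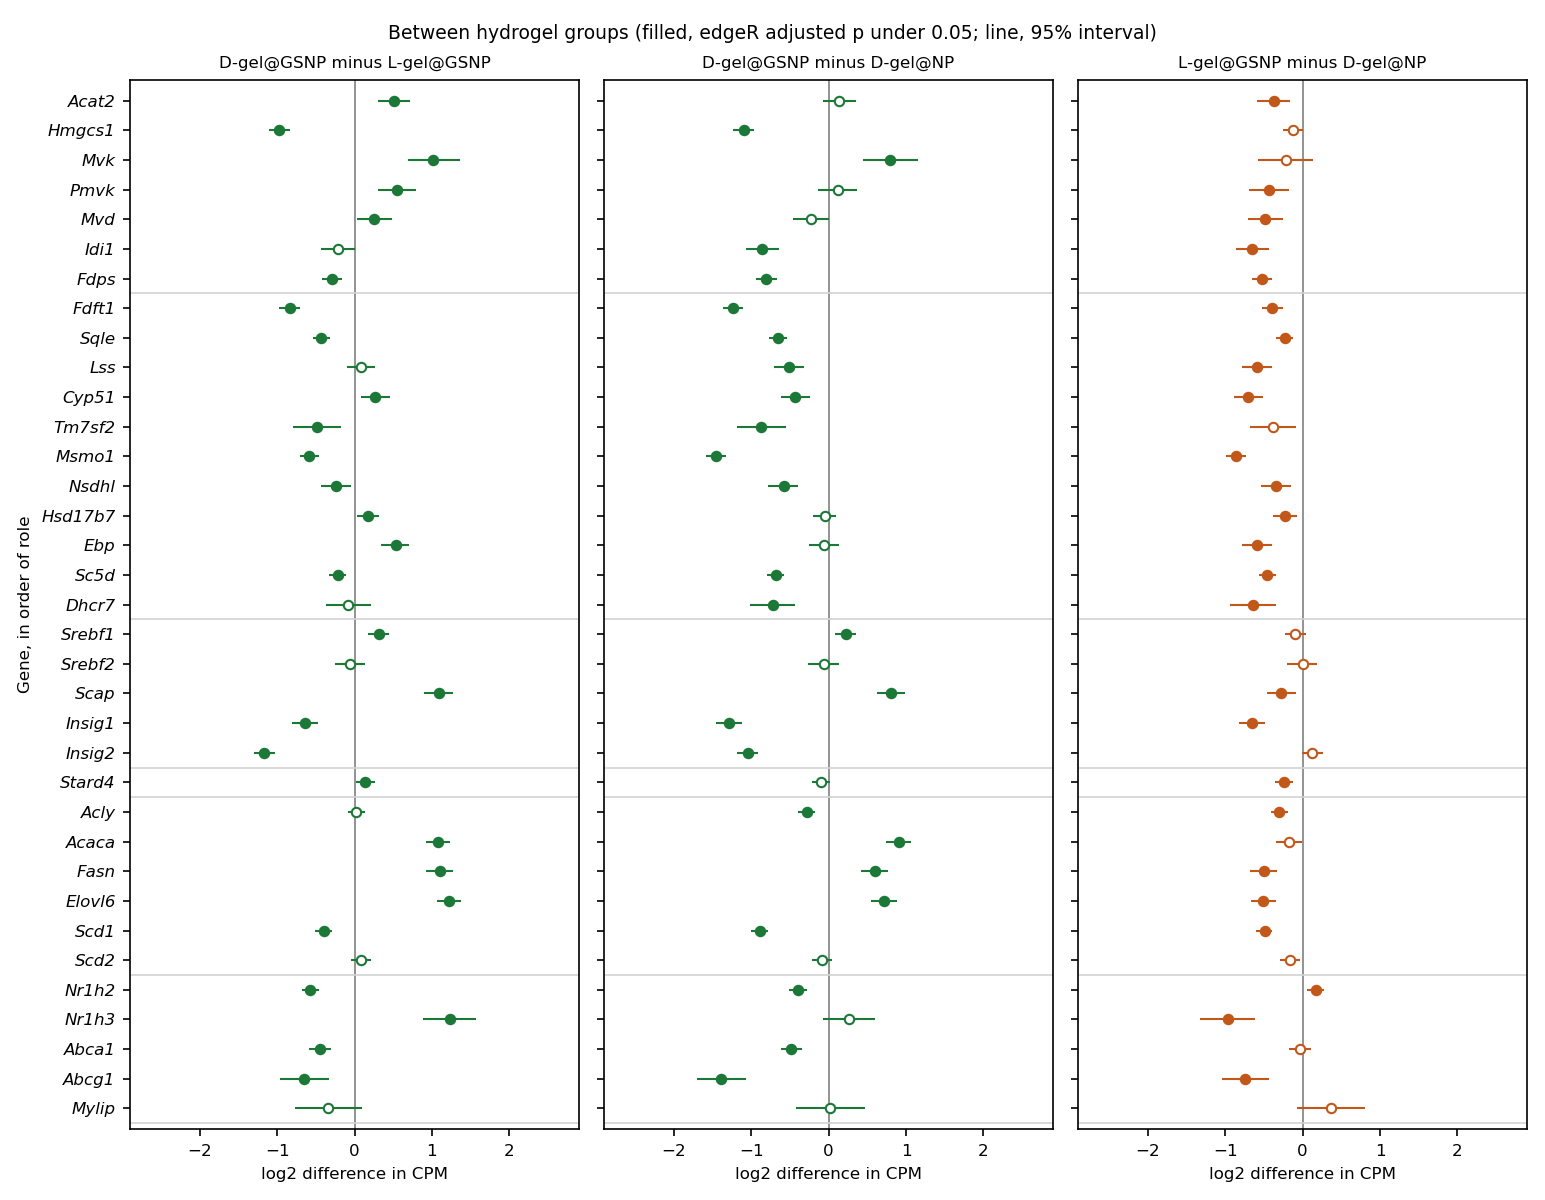
Log2 difference in CPM between pairs of hydrogel groups for the 35 genes, with 95% intervals; filled points passed the test. D-gel@GSNP minus L-gel@GSNP holds 14 filled points right of 0 and 14 left of it, and in L-gel@GSNP minus D-gel@NP the filled points lie left of 0 apart from Nr1h2.

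Against the untreated non-SP cells, D-gel@GSNP cells passed in 0 of the 35 genes, where 0.103% of all tested genes were called higher, 0.314% lower and 0.417% in either direction. At an unadjusted p under 0.05 there were 2, Idi1 at -0.23 and Insig1 at 0.18 on the log2 scale, and DESeq2 called 0. The 95% intervals of the 35 log2 differences lay between -0.56 and 0.57. A p that misses the threshold does not show that the levels were alike. L-gel@GSNP cells were higher than non-SP cells in 13 of the 35 and lower in 12, against 30.6% and 29.2% of all tested genes, 59.8% in all. The lower ones included Elovl6, Nr1h3, Acaca, Scap and Fasn at log2 differences of -1.28, -1.2, -1.07, -1.06 and -1.03, and the higher ones Insig2, Hmgcs1, Abcg1 and Fdft1 at 1.11, 0.95, 0.88 and 0.84. Stard4 and Cyp51 were also called lower, but Stard4 lost the call in 13 of 17 alternatives, among them without L-gel@GSNP replicate 2 or 3 or non-SP replicate 1 or 3, and Cyp51 without L-gel@GSNP replicate 1 or 3. D-gel@NP cells were higher than non-SP cells in 20 and lower in 5, against 29.1% and 27% of all tested genes, 56.1% in all, with log2 differences of 1.62 for Abcg1, 1.47 for Insig1, 1.38 for Msmo1 and -0.9 for Acaca.

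Of 33 further genes of the same pathways, 32 had enough counts to be tested. D-gel@GSNP cells were higher than PBS cells in 11 and lower in 16, L-gel@GSNP cells in 4 and 17, and D-gel@NP cells in 4 and 14. Over all tested genes, 27.4% were higher and 27.5% lower in the first of these comparisons, 21.5% and 24.1% in the second and 14.2% and 16.3% in the third. Lbr, the lamin B receptor that also has sterol reductase activity, was 1.29-fold higher in D-gel@GSNP than in PBS (log2 0.36, 95% interval 0.26 to 0.47, edgeR adjusted p = 2.1e-06). Aacs, acetoacetyl-CoA synthetase, was 1.7-fold lower in L-gel@GSNP than in PBS (log2 -0.77, 95% interval -0.87 to -0.67, edgeR adjusted p = 4.79e-11). Mbtps1, a protease that cuts the SREBPs, was 1.3-fold higher in D-gel@GSNP than in PBS (log2 0.38, 95% interval 0.27 to 0.49, edgeR adjusted p = 2.92e-06), and Mbtps2, the other such protease, did not pass in that comparison (log2 difference 0.07, adjusted p = 0.287 by edgeR). 

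The 7 genes of sterol uptake, transport and storage had median log2 differences from PBS of 0.24 in D-gel@GSNP cells, -0.09 in L-gel@GSNP cells and -0.01 in D-gel@NP cells. The 3 with the widest range are given here. Scarb1, the high-density lipoprotein receptor, averaged 71.4 CPM for D-gel@GSNP, 20.5 for L-gel@GSNP, 22.9 for D-gel@NP, 30.3 for PBS and 67.2 for non-SP libraries. It was 2.36-fold higher in D-gel@GSNP than in PBS (log2 1.24, 95% interval 1.08 to 1.39, edgeR adjusted p = 5.28e-12), and 1.47-fold lower in L-gel@GSNP than in PBS (log2 -0.56, 95% interval -0.72 to -0.4, edgeR adjusted p = 3.35e-06). Vldlr, a receptor of triglyceride-rich lipoproteins, averaged 34.4 CPM for D-gel@GSNP, 139 for L-gel@GSNP, 130 for D-gel@NP, 71.4 for PBS and 35.5 for non-SP libraries. It was 2.07-fold lower in D-gel@GSNP than in PBS (log2 -1.05, 95% interval -1.19 to -0.92, edgeR adjusted p = 7.34e-12) but 1.95-fold higher in L-gel@GSNP than in PBS (log2 0.96, 95% interval 0.83 to 1.1, edgeR adjusted p = 6.17e-11) and 1.81-fold higher in D-gel@NP than in PBS (log2 0.86, 95% interval 0.73 to 0.99, edgeR adjusted p = 1.54e-09). Tmem97, a sterol-regulated membrane protein, was 2.15-fold lower in L-gel@GSNP than in PBS (log2 -1.1, 95% interval -1.24 to -0.97, edgeR adjusted p = 1.27e-11).

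Among further genes of lipid synthesis, Acss2, which makes acetyl-CoA from acetate, averaged 6.52 CPM for D-gel@GSNP, 14 for L-gel@GSNP, 13.7 for D-gel@NP, 17.1 for PBS and 5.6 for non-SP libraries. Me1, malic enzyme and a source of NADPH, averaged 403, 170, 201, 297 and 381 CPM in the same groups, and was 1.75-fold lower in L-gel@GSNP than in PBS (log2 -0.8, 95% interval -0.95 to -0.66, edgeR adjusted p = 6.64e-09). Lpin1, a phosphatidate phosphatase, was 2.97-fold lower in D-gel@GSNP than in PBS (log2 -1.57, 95% interval -1.77 to -1.37, edgeR adjusted p = 7.77e-12). Of the LXR partners and targets, Apoe, the apolipoprotein that carries lipid out of cells, averaged 27.1, 94.9, 138, 139 and 27.1 CPM in the same groups and was 5.14-fold lower in D-gel@GSNP than in PBS (log2 -2.36, 95% interval -2.51 to -2.22, edgeR adjusted p = 5.09e-17). Rxrb, a partner receptor of LXR, was 1.43-fold higher in L-gel@GSNP than in PBS (log2 0.51, 95% interval 0.37 to 0.65, edgeR adjusted p = 1.37e-06), and Lpcat3, a phospholipid remodelling enzyme, was 1.2-fold higher in D-gel@GSNP than in L-gel@GSNP (log2 0.27, 95% interval 0.17 to 0.36, edgeR adjusted p = 1.79e-05).

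Markers of other cell types were read in the same libraries. The 11 macrophage and microglia markers summed to 12 to 13 CPM in D-gel@GSNP, 38.6 to 45.3 in L-gel@GSNP and 33.1 to 40.9 in D-gel@NP libraries. They summed to 66.8 to 74.7 CPM in PBS and 11.1 to 11.3 in non-SP libraries. This sum too was highest in PBS and lowest in D-gel@GSNP and non-SP, but single markers differed. Itgam had 3.88, 4.33 and 3.56 CPM in L-gel@GSNP and 1.82, 2.18 and 1.37 in PBS libraries. Of the 8 that could be tested, D-gel@GSNP cells were lower than PBS cells in 4 and higher in 0, against 27.5% lower and 27.4% higher over all tested genes. L-gel@GSNP cells were lower than PBS cells in 3 and higher in 1, against 24.1% and 21.5% of all tested genes. D-gel@NP cells were also lower in 3 and higher in 1, against 16.3% and 14.2%. Cd68 and Csf1r made up most of the sum, and Tyrobp had 0 counts in the L-gel@GSNP, PBS and non-SP libraries. The 4 fibroblast markers summed to a mean of 665 CPM for D-gel@GSNP, 1380 for L-gel@GSNP, 1460 for D-gel@NP, 1290 for PBS and 676 for non-SP libraries, nearly all from Dcn, while Col1a2 had 2, 8, 0, 6 and 1 counts in these groups. Of the 3 that could be tested, D-gel@GSNP cells were lower than PBS cells in 1, Dcn, and higher in 2, Col1a1 and Pdgfrb. Col1a1 averaged 14.4 CPM for D-gel@GSNP, 3.06 for L-gel@GSNP, 1.44 for D-gel@NP, 1.58 for PBS and 13.4 for non-SP libraries, and Pdgfrb averaged 0.695, 1.26, 0.628, 0.135 and 0.686 CPM in the same groups. The 3 adipocyte markers, Adipoq, Plin1 and Lep, summed to at most 0.226 CPM in any library. The share of mitochondrially encoded counts was likewise highest in PBS, and leaving those genes out of the library totals gave 29 called genes in D-gel@GSNP against PBS, 31 in L-gel@GSNP and 24 in D-gel@NP. The part of the macrophage and fibroblast markers in these results was not tested.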

How the data were processed

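RNA of 15 GL261 libraries, 3 in each of 5 groups, was read from the deposited table of whole-number gene counts, which the authors made from read pairs on GRCm39 using fastp 0.22.0 for the reads, HISAT2 2.1.0 and featureCounts, per the submitters' processing notes, which also name DESeq2. Annotation release, strand and multi-mapping settings are not given in the sources used here. The FPKM values deposited by the authors equal the count per fixed gene length and library total and were used for levels between genes. Even numbers made up 62.32% to 66.44% of counts between 1 and 20; if mates were counted separately, which was not tested, count-based precision is overstated. Symbols were matched by identifier to GENCODE for an earlier build (32434 of 34259 identifiers matched).

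Counts were fitted in R 4.3.3 with edgeR 4.0.16 (filterByExpr, TMM factors, glmQLFit and glmQLFTest) over all 15 libraries with a mean per group, and p-values were Benjamini-Hochberg adjusted over 17497 tested genes. The biological coefficient of variation was 8.06%. Standard errors were taken from the F statistics, so the 95% intervals are approximate. CPM values are TMM-scaled. On simulated counts for PBS minus non-SP over 17497 genes, 53 of 100 genes changed 1.5-fold and 70 of 100 changed 2-fold were called, as were 8 of 17297 unchanged ones. No other genes were changed, whereas 53.7% of tested genes were called in the data, so these rates need not hold there. Alternatives were other scaling factors, filters, DESeq2 1.42.0, limma 3.58.1 on log2(FPKM + 1) or log2(FPKM + 0.1), only the 6 libraries compared, totals without mitochondrially encoded genes, a replicate block and leaving out each replicate.

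The genes and lists were chosen with earlier results of these data known. CPM in every library is given for up to 3 genes of each role with the largest range of group means and, whatever their values, for Srebf1, Srebf2, Insig1, Nr1h3 and Abca1. At most 3 genes of each further list are named, by the same range. Some genes that this rule names are not reported here. Markers and Prom1 are named as checks. Promoter sequences are from RefSeq, build GRCm38.p6. No replicate pair agreed within sampling noise, and no table column belonged to another series.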

Additional observations from a re-analysis of the deposited data

How the results depend on the processing

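No total of called genes, both directions together, moved by more than 1.5 times under any alternative. Counts in 1 direction did where they were near 0: the number higher in L-gel@GSNP minus PBS was 0, but 2 under upper-quartile scaling and 1 under DESeq2, the filter of at least 1 CPM in 3 libraries, the limma fits, totals without mitochondrially encoded genes, and without L-gel@GSNP replicate 1 or 2 or PBS replicate 3. The number higher in L-gel@GSNP minus D-gel@NP was 1, but 0 with no filter, with only the 6 libraries compared, and without L-gel@GSNP replicate 3 or D-gel@NP replicate 1 or 3. Over 11 settings other than leaving out a library, the number called of the 35 was 27 to 29 in D-gel@GSNP minus PBS, 29 to 31 in L-gel@GSNP minus PBS, 20 to 26 in D-gel@NP minus PBS, 27 to 30 in PBS minus non-SP, 24 to 28 in D-gel@GSNP minus L-gel@GSNP, 25 to 28 in D-gel@GSNP minus D-gel@NP, 20 to 26 in L-gel@GSNP minus D-gel@NP and 0 to 0 in D-gel@GSNP minus non-SP. Leaving out 1 library gave 28 to 29, 29 to 31, 20 to 26, 28 to 29, 24 to 26, 25 to 26, 20 to 27 and 0 to 0 in the same order. Of 240 calls over 350 tests, 212 held in every alternative, and 24 were lost without at least 1 library.

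Upper-quartile scaling moved the median of all genes by -0.145 in D-gel@GSNP minus L-gel@GSNP, -0.121 in D-gel@GSNP minus D-gel@NP and 0.12 in L-gel@GSNP minus non-SP. The share of calls that were higher was then 38.1% against 49.4% in the first, 38.6% against 49.3% in the second, 61.2% against 51.2% in the third, 57.1% against 47.1% in L-gel@GSNP minus PBS and 57.2% against 46.5% in D-gel@NP minus PBS. It turned Stard4 in D-gel@GSNP minus L-gel@GSNP to -0.01 (main 0.14) and Acly in D-gel@GSNP minus L-gel@GSNP to -0.12 (main 0.02, not called); the scaling itself shifts both down.

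Same-numbered libraries did not deviate together (correlations of -0.036 to 0.045 over 30 pairs, and 3 of 15 libraries correlated best with their own number). No pairing by number was thus seen, though a small shared effect could be missed. With the replicate block 29, 30, 26, 29, 27, 25, 26 and 0 genes were called in the comparisons above, in the same order, 25 in L-gel@GSNP minus non-SP and 26 in D-gel@NP minus non-SP. Standard errors rest on 3 libraries a group and, except in the fits of 6 libraries, on an estimate of spread shared by the 5 groups. Groups of 3 allow no search for outlying libraries.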
